A study of Arabidopsis thaliana with 8 samples.

Results

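The transcripts described here are the 100 whose signal varied least over 8 expression arrays of Arabidopsis thaliana cell cultures. They were chosen among the 6271 probe sets, of 22746 that are not array controls, whose mean signal was at least 100 and which were not among the 200 brightest. From these eligible probe sets the 100 with the lowest coefficient of variation (CV, the standard deviation over the mean of the linear signal, all 8 arrays) were taken. Total RNA had been labelled with biotin, and 4 arrays are named fum and 4 met, numbered 1 to 4 in each group. All cultures were of the Ler background (stock code NW20) and were kept at 24 °C, and the Murashige and Skoog medium held sucrose, kinetin (a cytokinin) and NAA (an auxin). The labels expand neither group name and call neither a control, so differences are given as fum relative to met. Whether each array stands for its own culture is not stated, so the spread between them may be technical. The series title places the arrays in a search for core genes of programmed cell death. The number of arrays limits the precision of every value below.

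Transcripts of near-constant level matter in practice because other measurements are scaled on them: a quantitative PCR assay divides the transcript of interest by a reference transcript. Genes used in that way mostly serve functions that every cell needs, such as making ribosomes, folding proteins, moving vesicles and breaking down sugars. The signal is an array reading of a probe set, so a transcript counted as stable here gave a steady reading after the scaling of each array, and its amount per cell was not measured.

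The CV chose the members, so their low spread and their small differences between groups are a description and carry no test. The CV of the members ran from 1.73% to 5.04% with a median of 4.32%, and that of all 6271 eligible probe sets had a median of 13.7% (quartiles 10.1% and 18.3%). In each of the 100 the highest array was less than 1.2 times the lowest, and in 14 less than 1.1 times. Among all eligible probe sets the median of that ratio was 1.5. The 5 members just inside the threshold had CVs of 5.0% to 5.04%, among them AT1G24360 and AT4G39280, and the 5 probe sets just outside it had CVs of 5.08% to 5.12%, among them SPP, so no gap separates members from the rest. For comparison, the 100 eligible probe sets with the highest CV started at 41.4%.

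**Figure D1:**
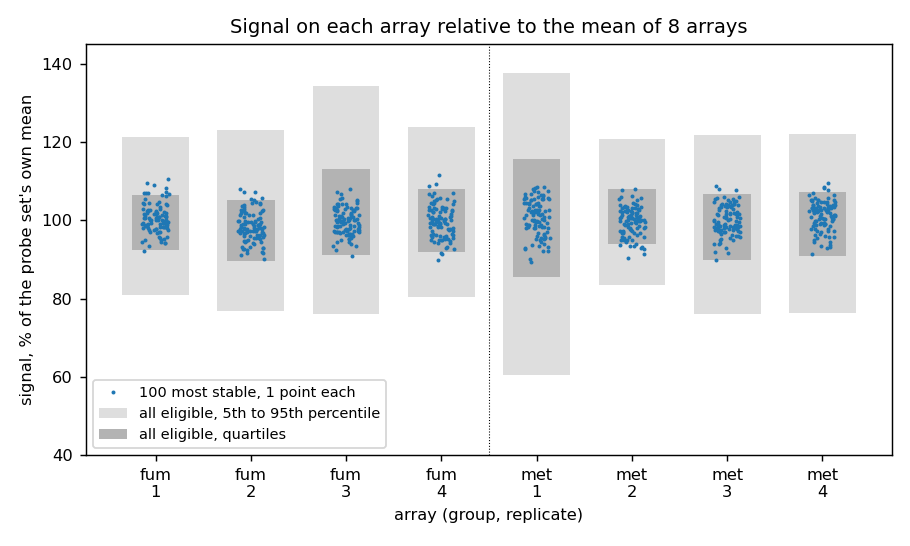
Signal of each of the 100 most stable probe sets on each array, as a percentage of its own mean over the 8 arrays (points, with random sideways offset), over the 5th to 95th percentile and the quartiles of all 6271 eligible probe sets (bars). The points lie between 89.3% and 111.5% on every array, while the bars are widest on met replicate 1.

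The members spanned the range of signal but leaned to bright probe sets. Their mean signal ran from 100.8 to 1826 with a median of 409, against a median of 211 for all eligible probe sets. When the eligible probe sets were divided into 5 classes of nearly equal size by mean signal, the brightest class held 42 members and the dimmest 9, and the median CV of all probe sets was 12.2% in the brightest class and 15.2% in the dimmest. Of the 100 most variable probe sets, 32 lay in the brightest class and 14 in the dimmest.

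The annotation gave 57 of the 100 probe sets a gene of their own, a share of 57.0% against 51.1% of all eligible probe sets. The other 43 have no gene listed there and are known here only by their probe set, such as 260283_at (CV 2.43%) and 260837_at (2.59%). Of the 57 named genes, 22 lie on chromosome 1, or 38.6%, where 23.2% of named eligible probe sets lie. A role could be given as background for 45 of the 57. The grouping into roles was made after the members were known, and the annotation describes too few of the other genes to give the share of each role in the eligible probe sets.

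**Figure D2:**
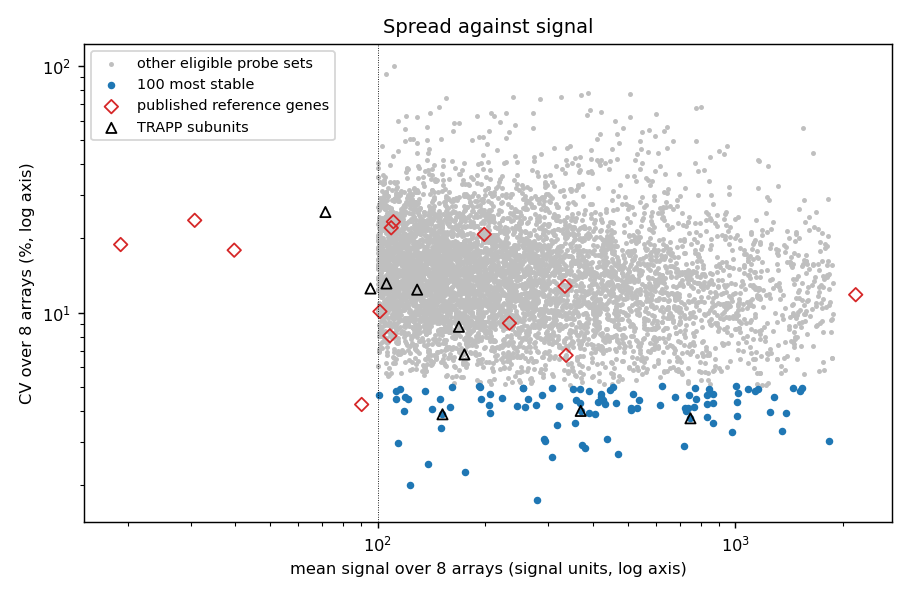
CV over the 8 arrays (%, log axis) against mean signal (signal units, log axis) for the 100 most stable probe sets, the other eligible probe sets, published reference genes and subunits of the TRAPP complex. The members lie at or below 5.04% at all signals from 100.8 upward, 8 of the reference genes lie among the other eligible probe sets, and 3 TRAPP subunits lie among the members.

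The steadiest transcript was that of AT2G15760, a gene for a protein of unknown function. It gave signals of 280.8, 278.2, 271.5 and 276.7 on fum replicates 1 to 4, against 275.2, 280.1, 287.8 and 281.3 on met replicates 1 to 4. The groups overlapped, with means of 276.8 ± 3.92 in fum and 281.1 ± 5.19 in met (SD, n = 4 each). AT1G02150, which encodes a pentatricopeptide repeat protein of the kind that binds organelle RNA, was second with a CV of 2.0%. AT1G04340, of a family annotated as hypersensitive-response-like lesion inducing, followed with a CV of 2.27%. It read 171.0, 170.7, 178.2 and 173.3 in fum, against 181.4, 176.3, 172.0 and 178.4 in met. The groups overlapped, with a log2 difference of -0.03 (-0.06 after quantile normalization), and the name of that family refers to cell death at infection sites. Among the next named genes were AT1G26850, a putative methyltransferase of the Golgi (2.89%), AT3G04560 (2.96%), AT2G20060, of the ribosomal protein L4 family (3.03%), AT4G39520, a GTP-binding protein of the developmentally regulated family (3.07%), and AT3G57000 (3.07%). AT4G36660 (3.42%) and AT5G09510 (3.51%) completed the 10 named genes of lowest CV.

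Genes that make and run the ribosome formed 2 of the role groups. The 5 members of ribosome synthesis were NRPA2, the second largest subunit of RNA polymerase I, which transcribes ribosomal RNA, AT2G34750, an initiation factor of the RRN3 type for that polymerase, AT3G57000, a nucleolar methyltransferase of the NEP1 type, the RNA helicase gene AT3G18600 and AT4G25730, of a family of ribosomal RNA methyltransferases. Their CVs lay between 3.07% and 4.83% and their mean signals between 291 and 742. NRPA2 read 425.7, 382.6, 388.9 and 396.8 in fum, against 364.2, 394.1, 369.5 and 390.1 in met. It was highest on fum replicate 1 and lowest on met replicate 1, and its groups overlapped. The largest subunit of the same polymerase, NRPA1, was not a member. Its CV was 9.84%, and its signals of 218.7 to 243.8 in fum overlapped those of 213.9 to 273.6 in met.

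The 6 members that act in translation had CVs of 3.03% to 5.04%. They were the cytosolic ribosomal protein genes AT5G09510 (S15 family), AT3G52580 (S14 family) and AT4G10450 (L9 family), the genes AT2G44065 and AT2G20060 of the ribosomal protein L2 and L4 families, and AT4G39280, the alpha chain of phenylalanyl-tRNA synthetase. Ribosomal proteins are encoded by small families of near-identical paralogues, and a probe set may read more than 1 of them. AT3G52580 read 1332.4, 1289.4, 1206.2 and 1241.2 in fum, against 1233.7, 1171.4, 1264.1 and 1251.4 in met, a CV of 3.94%. Its log2 difference was 0.043, and 0.133 after quantile normalization. Its paralogue AT2G36160 had a CV of 13.7%, with 1403.0, 1358.0, 1179.4 and 1242.5 in fum against 1775.0, 1474.4, 1600.6 and 1591.5 in met. AT2G36160 was lower on each fum array than on any met array, while the groups of AT3G52580 overlapped. The groups of 17.4% of all eligible probe sets did not overlap, and the rule kept large differences out of the members. Another gene of the family, AT3G11510, had a CV of 8.96%. Of the S15 family, AT5G09510 had a CV of 3.51%. The probe sets of AT5G09490 and AT5G09500 averaged 1.88 and 12.9 signal units and so were not eligible.

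AT4G10450, the ribosomal protein L9 gene, was 1 of 6 members whose groups did not overlap, as those of 12.4% of all probe sets tested and 17.4% of the eligible ones did not. It read 820.7, 831.3, 811.5 and 774.0 in fum, against 888.4, 869.7, 836.3 and 853.7 in met. Each fum array was thus below each met array, by a log2 difference of -0.09 (SE 0.07, limma adjusted p = 0.562). After quantile normalization the log2 difference was -0.045.

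**Figure D3:**
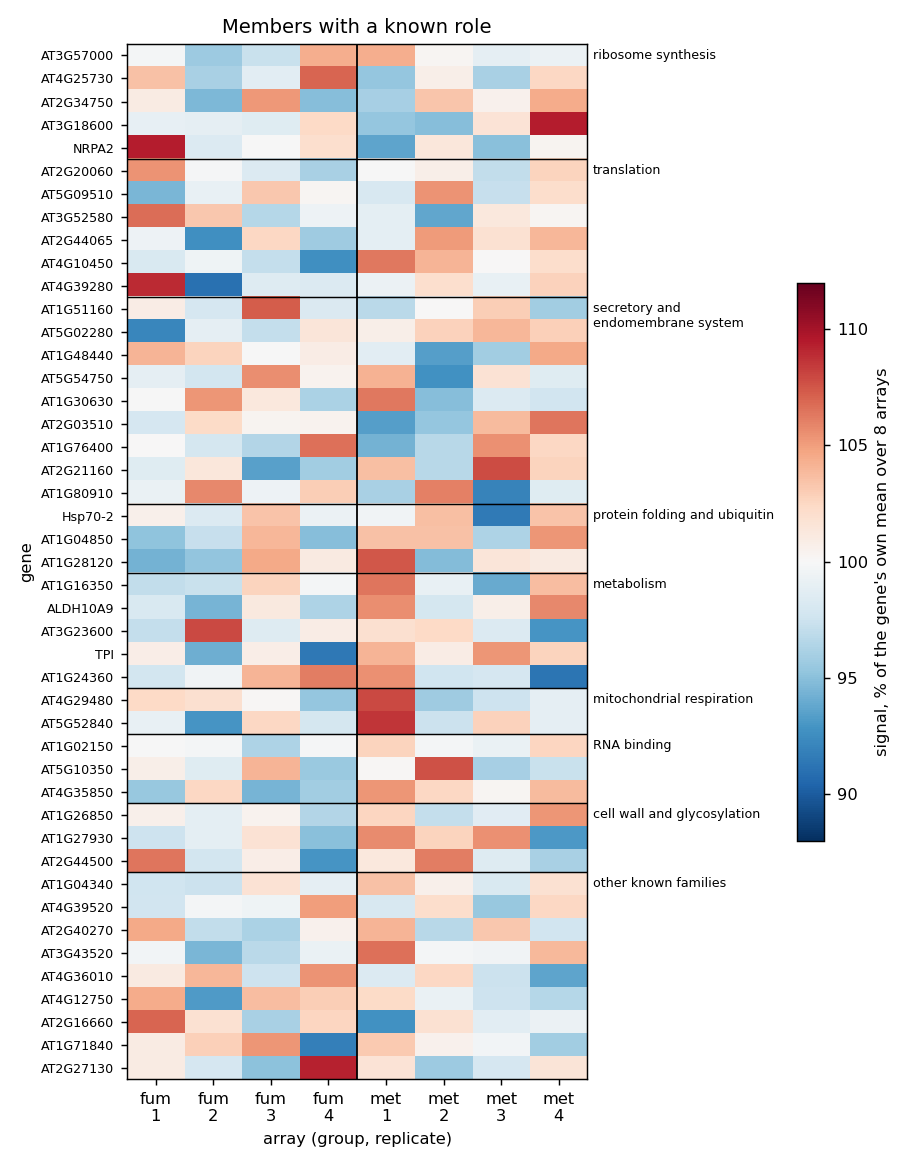
Signal of the 45 members with a known role on each array, as a percentage of the gene's own mean over the 8 arrays (colour), with fum replicates 1 to 4 left of met replicates 1 to 4 and genes grouped by role. High and low cells are scattered over both groups, and TPI and AT4G10450 are the 2 of these genes with each fum array below each met array.

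The secretory and endomembrane system held 9 members. TRAPP is a complex that tethers vesicles at the Golgi and activates Rab GTPases, and 3 of its small core subunits were members. AT1G51160 (BET5 type) read 755.8, 733.6, 803.4 and 736.1 in fum, against 724.5, 749.7, 771.2 and 717.9 in met. AT5G02280 (TRS23 type) read 139.9, 150.2, 147.5 and 154.0 in fum, against 152.9, 156.0, 157.9 and 156.1 in met. AT5G54750 (BET3 type) read 365.6, 361.5, 390.2 and 371.1 in fum, against 384.8, 342.8, 376.0 and 364.2 in met. In all 3 the groups overlapped, and their CVs of 3.73%, 3.87% and 4.0% ranked 21, 24 and 31 among the eligible probe sets. The complex as a whole was not uniformly steady: of 10 subunit genes listed after the members had been seen, 9 had a probe set of their own, 7 were eligible and 3 were members. The 4 other eligible subunits, AT2G20930, AT5G58030, AT1G80500 and AT5G16280, had CVs of 6.78%, 8.77%, 12.4% and 13.1%. AT5G58030, the TRS31-type subunit, lay higher on each fum array (176.8 to 185.6) than on any met array (143.4 to 163.1). Of all eligible probe sets, 17.4% had groups that did not overlap, and the rule kept large differences out of the members.

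Further members act earlier in the secretory pathway or at its later steps. AT1G76400 encodes ribophorin I of the oligosaccharyltransferase, which adds sugar chains to proteins in the endoplasmic reticulum, and had a CV of 4.46%. The second ribophorin I gene, AT2G01720, had a CV of 8.74%. AT2G21160, the alpha subunit of the translocon-associated protein complex, had a CV of 4.72% and AT1G48440, a BAP31-like protein of the endoplasmic reticulum, one of 3.93%. The log2 difference of AT1G48440 was 0.056, and 0.164 after quantile normalization. AT1G30630, the epsilon subunit of the COPI coat of Golgi vesicles, stood at 4.12%, and AT2G03510, an SPFH-domain membrane protein, at 4.30%. AT1G80910 encodes CCZ1b, which together with MON1 activates the Rab GTPase of late endosomes. It read 111.4, 118.7, 111.6 and 115.6 in fum, against 107.9, 119.0, 103.2 and 110.6 in met (CV 4.80%). The MON1 gene AT2G28390, known as the reference gene SAND, had a CV of 23.4%. Its low value was 54.3 on fum replicate 2, beside 116.3 to 122.5 on the other fum arrays and 92.0 to 134.7 in met.

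Of the 5 metabolic members, TPI, the cytosolic triose phosphate isomerase of glycolysis, was the brightest named member. It read 1531.6, 1429.9, 1531.7 and 1388.9 in fum, against 1582.0, 1532.8, 1599.3 and 1559.7 in met. Every fum array was below every met array, with a log2 difference of -0.09 (SE 0.07, limma adjusted p = 0.543). After quantile normalization the direction turned, with a log2 difference of 0.028. The others were the aldehyde dehydrogenase gene ALDH10A9 (CV 4.11%), the inosine monophosphate dehydrogenase gene AT1G16350 of guanine nucleotide synthesis (4.05%), AT1G24360, a reductase of plastid fatty acid synthesis (5.0%), and the hydrolase gene AT3G23600 (4.42%). The 2 respiratory members were AT4G29480, subunit g of the mitochondrial ATP synthase (4.13%), and AT5G52840, a subunit of complex I (4.65%). Both read highest on met replicate 1, at 781.0 and 906.7, and without that array their CVs were 2.83% and 3.39%.

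The remaining roles were held by a few genes each. Hsp70-2, a cytosolic chaperone, read 732.1, 715.8, 752.4 and 722.5 in fum, against 724.5, 753.9, 666.0 and 752.1 in met (CV 3.99%). Cytosolic HSP70 genes are near-identical in sequence, so its probe set may share signal with its paralogues. AT1G28120, a deubiquitinase of the OTU type, and AT1G04850, with a ubiquitin-associated domain, stood at 4.81% and 4.46%. Of the RNA-binding members besides AT1G02150, the poly(A)-binding protein gene AT5G10350 stood at 4.14% and AT4G35850, another pentatricopeptide repeat protein, at 4.21%. AT1G27930, an arabinogalactan methyltransferase, and AT2G44500, of the O-fucosyltransferase family, stood at 4.67% and 4.69%. The other known families included AT2G40270, of the receptor-like kinases (3.57%), AT3G43520, of the transmembrane 14C family (3.79%), AT4G36010, of the thaumatin family to which some pathogenesis-related proteins belong (3.91%), the homeodomain gene AT4G12750 (4.01%), AT2G16660, of the major facilitator transporters (4.35%), the WD40 repeat gene AT1G71840 (4.36%) and AT2G27130, of the lipid transfer proteins (4.51%). The 12 named members without a role given here had CVs of 1.73% to 5.0%. Besides AT2G15760, AT3G04560 and AT4G36660, they were AT1G65720, AT1G71780, AT1G15430, AT3G51010, AT1G02870, AT1G44780, AT1G70160, AT1G15350 and AT5G52180.

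The 43 members without a gene name resembled the named ones in spread. Their CVs ran from 2.43% to 5.04% and their mean signals from 100.8 to 1826, with a median of 469. The brightest of all members, 256179_at, was among them, with a CV of 3.02%. The groups did not overlap in 4 of them, 253954_at, 254742_at, 256679_at and 246499_at, against 17.4% of all eligible probe sets, and nothing is read from that count. The probe set 246499_at had the largest difference of all members, with 294.4, 281.8, 306.9 and 299.7 in fum against 324.0, 311.6, 320.2 and 324.1 in met. That was a log2 difference of -0.11 (SE 0.08, limma adjusted p = 0.508), again with fum lower.

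Between fum and met, 0 of the 100 members passed limma's test at an adjusted p of 0.05, and 0 had an unadjusted p below 0.05. Of all 13647 probe sets tested, 351 passed, or 2.57% (1.47% higher and 1.11% lower in fum; 4.21% of the eligible ones), and 17.9% had an unadjusted p below 0.05. The smallest unadjusted p of a member was 0.185. The rule used these same arrays, and a probe set with a large difference between groups could not have entered, so the count of 0 says nothing about the members. The log2 differences of the members ran from -0.11 to 0.076 with a median of -0.0097, 42 above 0 and 58 below. Over all eligible probe sets the median was -0.0069, and the median size of the difference was 0.16, against 0.031 for the members. The limma standard errors of the members lay between 0.070 and 0.102, since the fit draws each variance toward that of other probe sets of like signal. In 0 members was each fum array above each met array and in 6 it was below. Among all probe sets tested, 6.04% lay with fum above and 6.37% with fum below, 12.4% in both directions together, and 17.4% of the eligible probe sets did not overlap. Nothing is read from that count, for the same reason.

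Reference genes proposed in the literature were listed apart from the members. Of 25 such genes 13 had a probe set of their own, 8 were eligible and 0 were among the 100. As only 100 of the 6271 eligible probe sets were members, 0 of 8 is near that share, and nothing is read from it. The median CV of those 8 was 11.5%, against 13.7% for all eligible probe sets. The steadiest was AT4G26410, with a CV of 6.72% and rank 383. It was followed by AT2G32170 at 8.06%, PEX4 (UBC21), a ubiquitin-conjugating enzyme, at 9.07% and the tubulin gene TUB6 at 10.1%. AT5G46630, a clathrin adaptor subunit, stood at 12.8% and lay higher on each fum array (343.0 to 417.3) than on any met array (278.1 to 329.2). Groups that did not overlap were found in 17.4% of all eligible probe sets. TIP41-like AT4G34270 had 20.8%, AT4G33380 22.1% and SAND, as given above, 23.4%. The F-box gene AT5G15710 had a CV of 4.25%, within the range of the members, but its mean of 90.2 was below the minimum. It read 91.4, 94.5, 86.1 and 90.3 in fum, against 83.5, 90.2, 94.7 and 91.1 in met, and its groups overlapped. The GAPC2 gene of glycolysis, with a mean of 2170 among the 200 brightest, had a CV of 11.8%. Without met replicate 1 the CVs of the 8 eligible reference genes ranged from 5.48% for AT4G26410 to 23.6% for SAND.

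A list of proteasome subunits, the enzyme complex that degrades ubiquitin-tagged proteins, also held 0 members. Of its 42 genes 7 had a probe set of their own, all eligible, with CVs of 5.77% to 17.7%. Their median was 8.41%, against 13.7% for all eligible probe sets. With 100 members among 6271 eligible probe sets, 0 of 7 is near that share, and nothing is read from it. RPN12a was the steadiest of them, at rank 181 of 6271, with 783.3, 762.0, 897.7 and 777.5 in fum against 832.9, 806.7, 871.3 and 833.5 in met. The groups overlapped, with the highest reading on fum replicate 3. None of the 12 classes of gene function that were matched on annotation text could be used as a list. The text matched 2 of the 57 named members, NRPA2 under transcription and TPI under the mitochondrion, the second through a chance run of letters in a synonym.

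Lists of genes that mark other kinds of plant cell were also read. Of 12 leaf, 10 seed, 6 root hair and 5 xylem marker genes, 1, 1, 2 and 0 had a probe set of their own. Only the leaf marker was eligible, so their absence from the members says nothing about these cells. The seed marker AT3G01570 and the root hair markers EXPA7 and EXPA18 averaged 14.7 to 15.8 signal units. The leaf marker RCA, which activates the carbon-fixing enzyme, had a mean of 470 and a CV of 13.7%, with 421.0, 424.7, 382.7 and 464.4 in fum against 588.3, 515.9, 470.5 and 496.1 in met. Each fum array was below each met array for RCA, where 17.4% of all eligible probe sets had groups that did not overlap. The part of RCA in any value of the members was not tested.

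One array, met replicate 1, stood apart from the others. On met replicate 1 the 3′ actin control probe set read 12.01 times the 5′ one, against 1.92 to 2.39 on the other 7 arrays. Of all eligible probe sets, 51.0% had their highest or lowest value on that array, and 40 of the 100 members did. The median size of the log2 deviation from a probe set's own mean was 0.215 on met replicate 1 for all eligible probe sets, against 0.10 to 0.155 on the other arrays. For the members it was 0.054 there and 0.030 to 0.045 elsewhere. Chosen without met replicate 1, the 100 steadiest shared 41 with the members, and the 59 that entered each read more than 1.1-fold off on that array, 43 above and 16 below the mean of the other 7. Leaving out that array is what let these 59 in, so their deviation on it follows from the choice. SPP, the signal peptide peptidase gene, then ranked 3, and met replicate 1 read 0.867 times its mean on the other 7. Without that array the median CV was 4.21% for the members, which the rule had already held near their mean on it, and 11.6% for the eligible probe sets. The 3 TRAPP subunits, for example, had CVs of 3.75%, 4.18% and 3.95% without it, which ranked 91, 130 and 105.

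Whether the stability carried over to an array that had played no part in the choice was examined by leaving out each array in turn. The 100 probe sets chosen on 7 arrays deviated less on the array left out than all eligible probe sets did, for 8 of 8 arrays. The median size of the log2 deviation was 0.066 to 0.101 for the chosen and 0.114 to 0.178 for all eligible probe sets on the 7 arrays other than met replicate 1. On met replicate 1 it was 0.200 for the chosen and 0.249 for all. The 8 choices share arrays, so no test was made. Of the 100 chosen, between 58 (met replicate 1 left out) and 80 (met replicate 3 left out) lay within the median deviation of all eligible probe sets. By the definition of a median, equal numbers of the eligible probe sets lie on either side of it. The chosen were not matched to the eligible probe sets in signal, and the part of signal level was not tested.

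**Figure D4:**
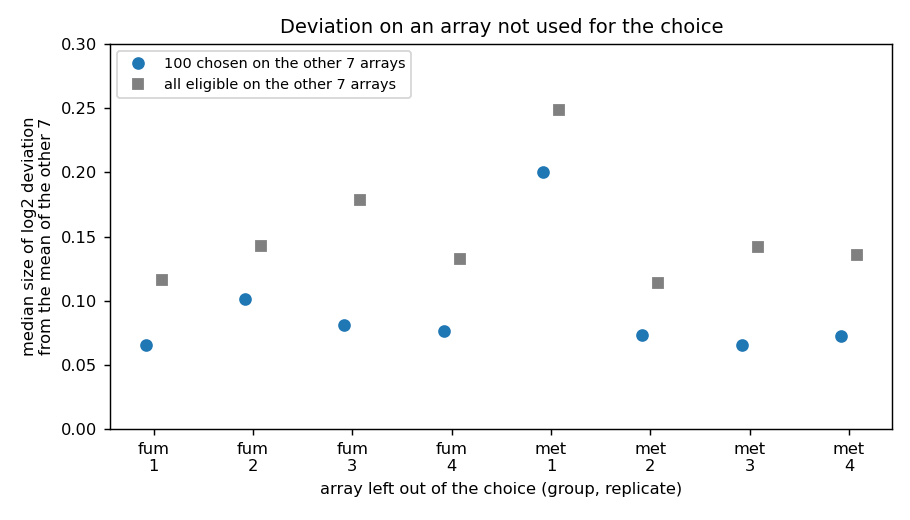
Median size of the log2 deviation on the array left out, from the mean of the other 7 arrays, for the 100 probe sets chosen on those 7 arrays (circles) and for all eligible probe sets (squares), by array. The circle lies under the square on all 8 arrays, and both are highest on met replicate 1, at 0.200 and 0.249.

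The same was done across the groups. The 100 steadiest on the 4 fum arrays had a median CV of 1.72% there and of 9.05% on the met arrays, where all eligible probe sets had 12.2%. Of these 100, 69 lay below the median CV of the eligible probe sets in met. The 100 steadiest on the 4 met arrays had a median CV of 1.91% there and of 7.33% on the fum arrays, where all eligible probe sets had 9.88%, and 73 lay below that median. The choices from each group alone shared 5 probe sets, where each took 100, of 6300 eligible on the fum arrays and 6208 on the met arrays.

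Membership held under some ways of ordering the probe sets and not under others. With the SD of log2 signal in place of the CV, 98 of the 100 were chosen again, and with the range over the mean 81. Leaving out an array kept 41 to 78. After quantile normalization 59 were chosen again, and after scaling each array to the same median signal 14. The median signal of all probe sets lay between 33.1 and 41.45 on the 8 arrays, with the highest on fum replicate 2, while the members' median deviation there was -0.029 on the log2 scale. A set of 34 members was chosen in each of the 8 omissions, and 22 of these have a gene name. They include AT2G15760, AT1G02150, AT1G04340, AT1G26850, AT4G39520, AT3G57000, AT5G09510, AT1G51160, AT4G10450, ALDH10A9, AT1G30630 and AT4G29480. NRPA2, TPI and AT1G80910 were kept in 2, 3 and 3 of the 8.

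**Figure D5:**
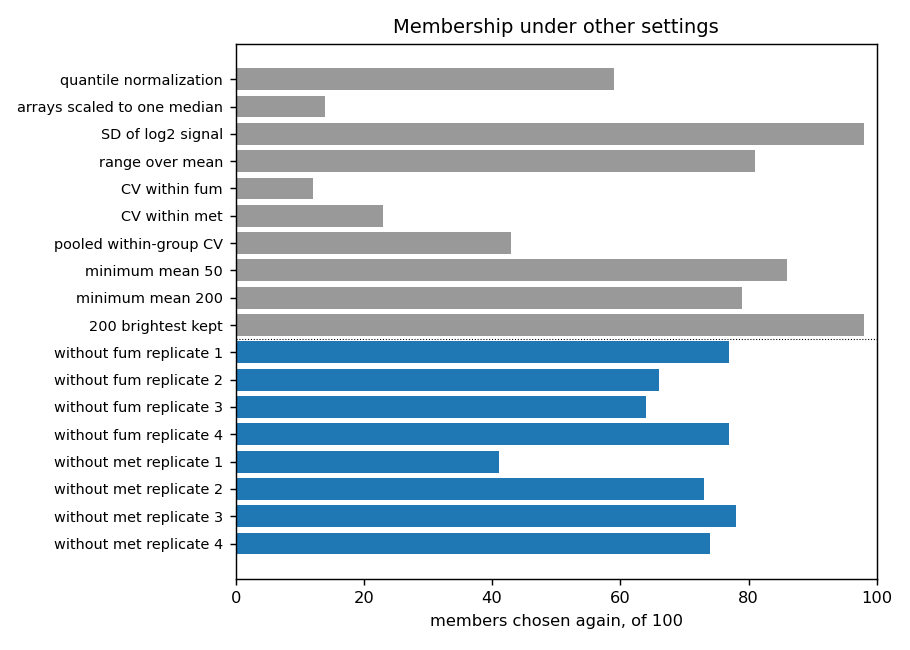
Number of the 100 members that were chosen again by the same rule under other settings (grey) and without each array (blue). The numbers run from 12 with the CV of the fum arrays alone to 98 with the SD of log2 signal, and the lowest number without a single array is 41, for met replicate 1.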

How the data were processed

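The deposited table holds one linear signal intensity per probe set and array, made by the authors with MAS5, per the submitters' processing notes, with no version given. The mean of each array between its 2nd and 98th percentile was 98.7 to 99.1. The array's settings and genome build are not given in the sources used here. The 64 control probe sets were left out. Probe sets were named through the supplied annotation, which gives 13436 of them 1 gene that matched the RefSeq table of the TAIR10.1 assembly, 503 several and 8730 none. No sequences were used.

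CVs were computed in Python 3.11.15 with pandas 2.3.3. For the comparison of groups, zeros were set to the lowest value above 0 in the table (0.1), log2 was taken, probe sets above the 40th percentile of mean log2 signal were kept, and limma 3.58.1 in R 4.3.3 was fitted (lmFit, eBayes with an intensity trend, two-sided, Benjamini-Hochberg over 13647 probe sets). The labels state no test. Means ± SD are of linear signals. The rule and the limma fit were also run on simulated arrays. For the rule, the steady rows planted there had far less spread than the rest, a gap that the real CVs lack.

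Members, gene lists and tests were chosen with earlier results of these data known. The naming rule took, of members with 1 named gene, the 10 of lowest CV, the 5 brightest and 5 dimmest, up to 3 of each class of function, those in a list or past the limma threshold and the 5 with the largest difference, the 5 probe sets on each side of the CV threshold, and published reference genes; it named 27 members. All other members with a known role, the families and their paralogues were added after their values were seen. Alternatives covered normalization, filter, variance model, array weights, replicate number as a block, single arrays and the rule's own thresholds.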

Additional observations from a re-analysis of the deposited data

Results flagged for a closer look

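Among the members named by the fixed rule, the 4 arrays of each group were examined for a single array far from the other 3. This was so in 2 of 54 groups of arrays, where chance gives about 5%. AT1G02150 read 118.7 on fum replicate 3, beside 122.9 to 123.2 on the other fum arrays and 122.2 to 126.5 in met. The gap took up 0.933 of the range in fum. The homeodomain gene AT4G12750 read 110.7 on fum replicate 2, beside 122.3 to 124.0 on the other fum arrays and 114.7 to 121.5 in met, a gap of 0.872 of the range.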

How the results depend on the processing

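The number of members chosen again, of 100, was 59 after quantile normalization, 14 after scaling arrays to the same median, 12 with the CV within fum, 23 within met and 43 with a pooled within-group CV. It was 79 to 98 with the other settings of the rule and 41 to 78 without single arrays: 66 without fum replicate 2, 64 without fum replicate 3 and 41 without met replicate 1. The members' median CV was 4.57% after quantile normalization and 8.41% after scaling to the same median. The causes were not tested. The count of members that passed limma between fum and met was 0 in each of the settings run, and 4 had an unadjusted p below 0.05 after quantile normalization and 0 elsewhere. The count over all probe sets, 351, became 116 with arrays centred on the median, 164 without the intensity trend, 1323 with array weights and 112 to 416 without single arrays (175, 167 and 112 without fum replicates 1, 3 and 4, and 154 and 151 without met replicates 3 and 4). With the replicate number as a block it was 115. Whether the numbers pair the arrays was not settled. Same-numbered arrays had correlations of deviations from their group means of -0.17, -0.30, -0.47 and 0.14, and 1 of 8 arrays correlated best with its own number. With 4 arrays in each group, and met replicate 1 in the met mean, these values cannot tell whether same-numbered arrays shared a culture or batch. Of 486 log2 differences of named members under alternatives, 11 moved by more than 1 SD, 9 of them after quantile normalization. There TPI turned to 0.028 and AT1G26850 to 0.022. The highest of the 486 was also found there, 0.164 for AT1G48440 (0.056 as deposited). AT3G52580 went from 0.043 to 0.133. Promoter motifs, planned for these genes, were not analysed here.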

Other observations

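Equally steady transcripts lay on both sides of the range of signal that the rule allowed. With the minimum mean lowered to 50, 14 probe sets entered in place of members. They included the tubulin gene TUB1 (mean signal 71.35, CV 4.16%), the F-box gene AT5G15710 described above, the LIM domain gene WLIM1, whose protein binds actin filaments (91.8, 4.44%), and AT2G26200 (82.6, 3.55%). With the 200 brightest kept, 2 entered. AT3G09440, a cytosolic HSP70 gene, had a mean of 2359 and a CV of 3.63%. Hsp70-2, a member through its low CV, stood at 3.99%. Of 5 cytosolic HSP70 genes listed after the members had been seen, only these 2 had their own probe set. On every array both probe sets lay on the same side of their own means, and both were lowest on met replicate 3. Such near-identical genes may share signal, so the readings may not stand for 2 separate steady genes. The part of shared signal was not tested. AT3G09440 read 2489.0, 2308.7, 2431.9 and 2295.9 in fum, against 2334.6, 2398.1, 2220.6 and 2393.6 in met, and the groups overlapped. These genes were chosen after their values were seen.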
